A study of Mus musculus with 20 samples.

Results

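The 10 genes described are transcription factors and surface markers of granulopoiesis, the making of neutrophils from bone marrow progenitors. They are the 4 C/EBP genes Cebpa, Cebpb, Cebpd and Cebpe, the factors Gfi1, Spi1, Myb and Myc, and the progenitor surface genes Cd34 and Kit. They were taken by symbol from 24421 genes listed in each library, of which 14030 passed a filter on low counts, the 10 included. The choice was made with earlier results of these data known. RNA was sequenced from bone marrow neutrophils of 20 female mice in 4 groups of 5, to ask what the clock gene Bmal1 and imiquimod (IMQ) each change in these cells. WT mice were purchased C57BL/6J, and Bmal1 Mye-/- mice (Bmal1 myeloid conditional KO) carried floxed Bmal1 alleles with Cre inserted at Lyz2, which is active across myeloid cells and not in neutrophils alone. Mice of each genotype were left untreated or received a 5% cream of IMQ, a ligand of Toll-like receptors 7 and 8, on the ears 3 times a week for 6 weeks from 8 to 10 weeks of age. The cream was given at about Zeitgeber time 11 and mice were killed at Zeitgeber times 1 to 4, so only 1 phase of the day was sampled. WT mice came from a supplier and Bmal1 Mye-/- mice from an in-house colony, so genotype and origin cannot be told apart.

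Neutrophils arise from progenitors that carry CD34 and KIT on the surface and lose both as they mature. C/EBPalpha and PU.1, the product of Spi1, open the granulocyte and monocyte programme, MYB and MYC act while cells still divide, GFI1 represses monocyte and progenitor genes, and C/EBPepsilon drives the genes of secondary granules. C/EBPbeta is known for neutrophil output under stress, and C/EBPdelta is found in the later, post-mitotic cells.

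Each library held between 30782166 and 92613500 reads on genes (median 66094896). Lyz2, the locus that holds Cre, was at 2465 to 12030 CPM (reads scaled to library size with edgeR's TMM factors) in the WT libraries and at 58.8 to 177.3 CPM in the Bmal1 Mye-/- libraries, so all 20 libraries matched their genotype labels. Arntl, the symbol of Bmal1 in the files, was at 0.562 to 1.87 CPM in WT and at 0.337 to 1.52 CPM in Bmal1 Mye-/- libraries, and these ranges overlapped. The 9 neutrophil markers listed summed to 40600 to 111000 CPM. Ly6g and Trac were not among the genes listed, and the globin genes Hba-a1, Hba-a2, Hbb-bs and Hbb-bt were at 0 in all 20 libraries.

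Libraries that stood apart touched several of the 10 genes. IMQ-treated Bmal1 Mye-/- replicate 1 had 1760 CPM of monocyte and dendritic markers summed, against 649 in replicate 2 and 137 to 297 in the other three of its group, and 40600 CPM of neutrophil markers, the lowest of the 20. It held the highest Cebpa, Myc and Cd34 and the lowest Spi1 of the 20 libraries. IMQ-treated WT replicate 3 had 2510 CPM of cell cycle genes against 467 to 1180 in the rest of its group, and held the lowest Cebpa, Cebpb, Cebpd and Kit and the highest Gfi1. IMQ-treated WT replicate 5 lay among the untreated libraries on the first principal component, at -37.1, where the other IMQ-treated WT libraries were at 19.5 to 92.5. IMQ-treated Bmal1 Mye-/- replicate 2 was at -10.7, also within the untreated range of -57 to -7.63, where the rest of its group was at 38.4 to 79.6. The comparisons that use treated libraries were therefore also run without the first 2 of these libraries and without the first 3, and each of the 4 was also left out alone.

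Promoter windows, 250 bases before to 50 bases after a transcription start, were read from RefSeq on GRCm38.p6 for 6 of the 10 genes, namely Cebpa, Cebpb, Gfi1, Myb, Cd34 and Kit. BMAL1 with its partner CLOCK binds the E-box CACGTG, and none of the 8 windows of these 6 genes held those letters on either strand, where 7.15% of all 32851 windows did. The C/EBP-like letters TTGCNNAA were in 1 of the 8 windows against 10.8% of all windows, the Myb-like letters TAACNG in 1 of 8 against 23.3%, and the PU.1-like letters GAGGAAGT in 0 of 8 against 3.2%. Shown is 1 window each of Gfi1, Kit, Cd34 and Cebpb, the genes with an unadjusted p under 0.05 in any comparison, 5′ to 3′ on the gene's own strand. Capitals mark the 2 matches, TTGCTGAA starting 143 bases before the Gfi1 start and CGGTTA, the reverse complement of the Myb-like letters, starting 59 bases before the Cd34 start. The windows are chr5:107725756-107726055 on the minus strand for Gfi1, chr5:75574737-75575036 on the plus strand for Kit, chr1:194938571-194938870 on the plus strand for Cd34 and chr2:167688665-167688964 on the plus strand for Cebpb. The second window of Gfi1, chr5:107724294-107724593, and that of Kit, chr5:75574741-75575040, held no match and are not shown. A match is only a run of letters, and no binding was measured.
Gfi1: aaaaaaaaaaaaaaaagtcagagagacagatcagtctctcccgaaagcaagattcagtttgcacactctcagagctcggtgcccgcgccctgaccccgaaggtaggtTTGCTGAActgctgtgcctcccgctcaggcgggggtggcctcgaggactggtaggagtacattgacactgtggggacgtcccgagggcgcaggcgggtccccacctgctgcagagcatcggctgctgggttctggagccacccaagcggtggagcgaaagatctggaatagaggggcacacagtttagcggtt
Kit: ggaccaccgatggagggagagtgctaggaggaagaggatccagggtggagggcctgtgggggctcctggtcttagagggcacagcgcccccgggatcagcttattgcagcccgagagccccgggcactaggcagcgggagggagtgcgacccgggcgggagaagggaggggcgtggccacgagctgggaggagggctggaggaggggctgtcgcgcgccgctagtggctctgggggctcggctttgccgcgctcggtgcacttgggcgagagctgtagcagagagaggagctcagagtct
Cd34: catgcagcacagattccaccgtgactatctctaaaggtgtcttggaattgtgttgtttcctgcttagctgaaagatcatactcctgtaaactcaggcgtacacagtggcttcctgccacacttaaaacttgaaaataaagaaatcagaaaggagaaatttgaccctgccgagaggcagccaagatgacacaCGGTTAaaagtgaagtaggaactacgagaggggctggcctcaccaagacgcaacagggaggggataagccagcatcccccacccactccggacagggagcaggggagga
Cebpb: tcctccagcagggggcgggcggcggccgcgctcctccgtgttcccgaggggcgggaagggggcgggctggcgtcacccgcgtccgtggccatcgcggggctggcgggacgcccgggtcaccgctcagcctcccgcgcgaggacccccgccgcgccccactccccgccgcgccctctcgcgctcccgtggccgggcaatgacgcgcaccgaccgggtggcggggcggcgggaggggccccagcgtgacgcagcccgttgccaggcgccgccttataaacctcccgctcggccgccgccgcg

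Levels per gene length (RPKM, from the exonic bases of the GENCODE vM21 annotation) spanned a wide range. The mean over the 20 libraries was highest for Spi1, at 333 RPKM, and Cebpe, at 325 RPKM, and Spi1 exceeded Cebpe in only 12 of the 20 libraries, so their order was not fixed. Cebpb followed at 198 RPKM, below Cebpe in 18 of 20 libraries, then Cebpd at 87 RPKM and Cebpa at 19.5 RPKM, each below the gene before it in 20 of 20. Gfi1 was at 10.6 RPKM, below Cebpa in 17 of 20, and Myb at 3.93 RPKM, below Gfi1 in all 20. The progenitor gene Kit was at 2.4 RPKM, Myc at 1.48 RPKM, below Kit in 17 of 20, and Cd34 at 0.0983 RPKM. Spi1 and the C/EBP genes thus lay above the progenitor surface genes in level per length. Cd34 rested on 12 to 199 reads per library, so its values carry the largest counting error, while no other member fell below 70 reads.

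**Figure D1:**
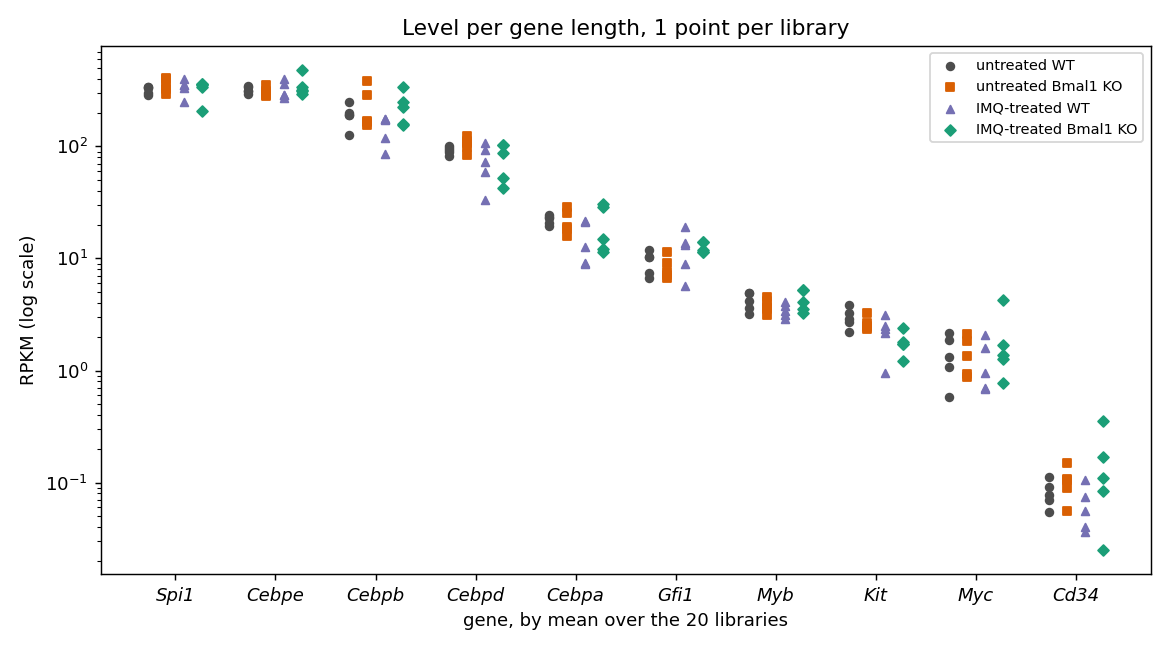
RPKM on a log scale (vertical axis) of the 10 genes, ordered by their mean over the 20 libraries (horizontal axis), with 1 point per library and 1 symbol per group. Spi1 and Cebpe, with means of 333 and 325 RPKM, overlap at the top, and Cd34, with a mean of 0.0983 RPKM, lies apart at the bottom.

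The spread across libraries also differed between the genes. The highest library was 1.79 times the lowest for Cebpe, 1.8 times for Myb and 1.97 times for Spi1. The same ratio was 3.39 for Cebpa, 3.42 for Gfi1, 3.71 for Cebpd, 4.1 for Kit and 4.44 for Cebpb, and reached 7.46 for Myc and 14.2 for Cd34.

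Cebpa (GRCm38 chr7:35119293-35121928, plus strand), which starts the granulocyte programme, was at 64.5, 60.2, 61.4, 54.9 and 51.3 CPM in untreated WT and at 48.6, 50.4, 75.4, 67.6 and 41.9 CPM in untreated Bmal1 Mye-/- libraries, replicates 1 to 5. Under IMQ it was at 33.3, 24, 23.7, 56.1 and 56.3 CPM in WT and at 80.3, 75.4, 39.2, 30.4 and 32.2 CPM in Bmal1 Mye-/-. The treated groups each fell into a low and a high set of libraries, and the 2 high Bmal1 Mye-/- libraries were replicates 1 and 2, those with the most monocyte and dendritic marker RNA. The part of that RNA in the Cebpa values was not tested. In bulk RNA, fewer cells of a type and less RNA per cell cannot be told apart.

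Cebpb (chr2:167688915-167690418, plus strand), the stress-responsive member, was at 378, 284, 191, 289 and 298 CPM in untreated WT and at 246, 234, 432, 573 and 251 CPM in untreated Bmal1 Mye-/-. Under IMQ it was at 261, 263, 129, 258 and 180 CPM in WT and at 235, 508, 238, 335 and 373 CPM in Bmal1 Mye-/-. Of the treated Bmal1 Mye-/- libraries 3 lay above every treated WT library, and the other two lay within the WT range. Cebpd (chr16:15887286-15891031, plus strand) had means ± SD (n = 5) of 345 ± 25.2 CPM in untreated WT, 394 ± 54.8 CPM in untreated Bmal1 Mye-/-, 274 ± 109 CPM in treated WT and 291 ± 106 CPM in treated Bmal1 Mye-/-. Its spread between mice was thus wider in the treated groups, with 125 to 403 CPM in treated WT and 160 to 387 CPM in treated Bmal1 Mye-/-. Cebpe (chr14:54710360-54712174, minus strand), the terminal factor, was the steadiest, with 399 ± 26.6, 382 ± 34.2, 399 ± 72 and 433 ± 93.8 CPM (SD, n = 5) in untreated WT, untreated Bmal1 Mye-/-, treated WT and treated Bmal1 Mye-/-. Tmem189 and Spidr lie across Cebpb and Cebpd on the other strand, and the strand setting of the counting is not given in the sources used here, so reads of these pairs may not be told apart. On the other strand, Gm45091, A430072P03Rik and Gm26577 lie across Cebpa, Gfi1 and Myb and are not among the genes listed. Reads from them may likewise be counted in these members.

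Gfi1 (chr5:107716657-107726036, minus strand), the repressor, was at 37.8, 32.5, 32.4, 23.4 and 21.3 CPM in untreated WT and at 23.9, 22.7, 36.4, 21.4 and 29.1 CPM in untreated Bmal1 Mye-/-. Under IMQ it was at 43.3, 42.2, 61.3, 28.2 and 18 CPM in WT and at 36.3, 45.1, 44.7, 36.7 and 38.4 CPM in Bmal1 Mye-/-. In Bmal1 Mye-/- mice 4 of 5 treated libraries lay above every untreated one, and the groups overlapped only where untreated replicate 3, at 36.4 CPM, met treated replicate 1, at 36.3 CPM. Treated WT libraries ranged on both sides of the untreated ones. Spi1 (chr2:91082390-91115756, plus strand) was at 862 ± 60.3, 949 ± 135, 904 ± 151 and 873 ± 178 CPM (SD, n = 5) in untreated WT, untreated Bmal1 Mye-/-, treated WT and treated Bmal1 Mye-/-, where replicate 1 stood alone at 558 CPM.

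Myb (chr10:21124935-21160984, minus strand) was at 37.1 ± 6.83, 34.1 ± 5.14, 31 ± 4.35 and 38.2 ± 8.32 CPM (SD, n = 5) in the same order of groups. The groups overlapped, though 2 of 5 treated Bmal1 Mye-/- libraries lay above every treated WT library. Myc (chr15:61985391-61990374, plus strand), which drives growth and ribosome making, was at 2.9, 5.94, 5.05, 1.56 and 3.62 CPM in untreated WT and at 5, 3.67, 2.36, 2.53 and 5.75 CPM in untreated Bmal1 Mye-/-. Under IMQ it was at 2.56, 4.29, 5.63, 1.9 and 1.84 CPM in WT and at 11.7, 3.43, 4.61, 2.12 and 3.75 CPM in Bmal1 Mye-/-. Replicate 1 of treated Bmal1 Mye-/- lay alone at the top, and the other 19 libraries lay between 1.56 and 5.94 CPM.

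Cd34 (chr1:194938819-194961279, plus strand) was at 0.563, 0.666, 0.514, 0.394 and 0.818 CPM in untreated WT and at 0.778, 1.08, 0.404, 0.655 and 0.773 CPM in untreated Bmal1 Mye-/-. Under IMQ it was at 0.291, 0.544, 0.262, 0.405 and 0.762 CPM in WT and at 2.58, 1.24, 0.799, 0.182 and 0.618 CPM in Bmal1 Mye-/-, which held both the highest and the lowest library. Gm16897 lies across Cd34 on the other strand, with the same limit on reads. Kit (chr5:75574916-75656722, plus strand), the receptor of stem cell factor, was at 34.5, 29.2, 25.7, 19.5 and 23.9 CPM in untreated WT and at 23.9, 21.5, 22.1, 21 and 29.1 CPM in untreated Bmal1 Mye-/-. Under IMQ it was at 21, 27.8, 8.41, 22.1 and 19.2 CPM in WT and at 15.5, 21.2, 15.9, 15.4 and 10.7 CPM in Bmal1 Mye-/-. In Bmal1 Mye-/- mice 4 of 5 treated libraries lay below every untreated one, and only replicate 2, at 21.2 CPM, reached the lowest untreated library, at 21 CPM. Kit is also a gene of mast cells. In the same comparison 1 of 6 tested basophil and mast markers was called, Ms4a2, which rose by 1.00 on the log2 scale (SE 0.35, adjusted p = 0.0476, edgeR quasi-likelihood test). Of these 6 markers 5 had values above 0, with a median of 0.822 and 3 at an unadjusted p under 0.05. DESeq2 called 1 as higher and limma 2. The 10 markers of that list summed to 1180 to 1550 CPM (median 1330) in untreated and 414 to 1390 CPM (median 972) in treated Bmal1 Mye-/- libraries, most of it from Hdc, with a mean of 1110 CPM over the 20 libraries. The sum therefore follows Hdc more than the other markers. The part of mast cells and basophils in the Kit values was not tested.

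**Figure D2:**
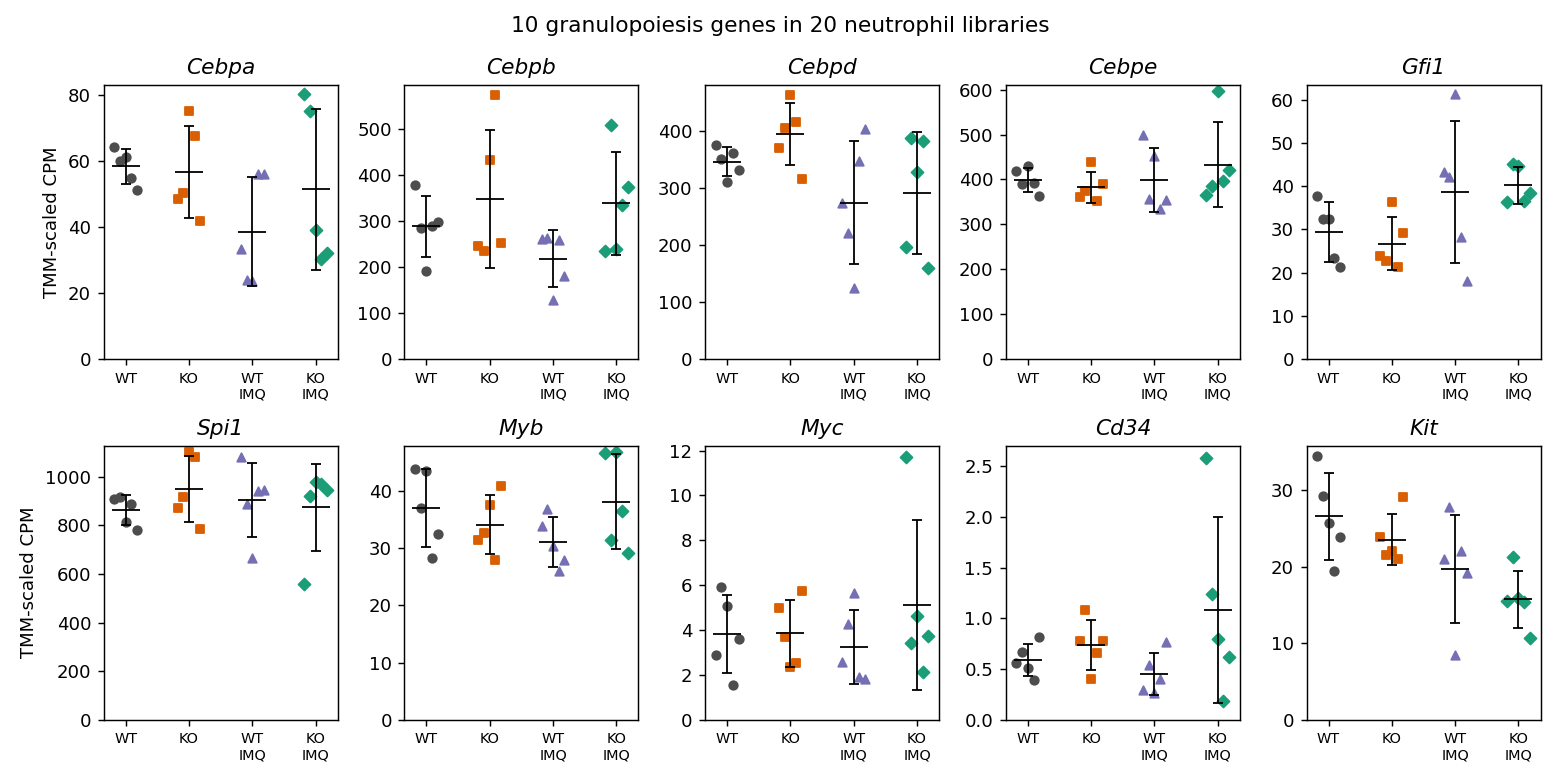
TMM-scaled CPM (vertical axes, from 0) of the 10 genes in the 4 groups (horizontal axes, KO standing for Bmal1 Mye-/-), with 1 point per library in replicate order and a bar for the mean and SD of 5. In the KO groups, Gfi1 lies at 36.3 to 45.1 CPM with IMQ and 21.4 to 36.4 CPM without, and Kit at 10.7 to 21.2 CPM with IMQ and 21 to 29.1 CPM without.

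The genotypes were first compared without treatment. By the quasi-likelihood F test of edgeR, adjusted by the Benjamini-Hochberg method over all genes tested, 0 of the 10 genes passed an adjusted p of 0.05, and 0 had an unadjusted p under 0.05. DESeq2 and limma also called 0. Of all genes tested 0.207% passed, and the libraries of both groups did not overlap for 1.52% of all genes and for 0 of the 10. The log2 fold changes, Bmal1 Mye-/- over WT, ran from -0.18 for Kit to 0.33 for Cd34 with a median of -0.011, against -0.00388 over all genes, and each adjusted p was 1. For Cebpe the 95% interval was -0.34 to 0.22, for Spi1 -0.18 to 0.46 and for Myb -0.45 to 0.21 on the log2 scale, while for Myc it was -0.91 to 0.95 and for Cd34 -0.68 to 1.35.

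Under IMQ, again 0 of the 10 genes passed between the genotypes, with 0 by DESeq2 and 0 by limma. An unadjusted p under 0.05 was found for 2 of the 10 and for 19.9% of all genes, about the same share. The background was 0.292% of all genes passing and 1.07% with groups that did not overlap, against 0 of the 10. Cd34 had a log2 fold change of 1.26 (SE 0.49, adjusted p = 0.219, edgeR), with a 95% interval of 0.22 to 2.29. Without treated Bmal1 Mye-/- replicate 1 it was 0.64, and without that library and treated WT replicate 3 it was 0.51, while without treated Bmal1 Mye-/- replicate 4 it was 1.53 with an adjusted p of 0.0569. Without the 3 libraries it was 0.75. Cebpb had a log2 fold change of 0.63 (SE 0.28, adjusted p = 0.242, edgeR), and without both libraries 0.62, where the adjusted p was 0.15, or 0.47 without the 3. Myc was at 0.66 with an interval of -0.28 to 1.59, and at 0.12 without replicate 1 of treated Bmal1 Mye-/-. Kit was the one member with a call when a library was left out: without treated WT replicate 3 its log2 fold change went from -0.32 to -0.51 with an adjusted p of 0.0462, and without that library and treated Bmal1 Mye-/- replicate 1 it was -0.49 with an adjusted p of 0.0982. Without the 3 it was -0.59 with an adjusted p of 0.113. The same omission of WT replicate 3 took the count over all genes from 41 to 3129. The other six members had log2 fold changes of -0.05 to 0.41, and the median of the 10 was 0.209 against 0.0335 over all genes.

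IMQ was then compared with no treatment in each genotype. In WT mice 0 of the 10 genes passed by edgeR, by DESeq2 or by limma, and 0 had an unadjusted p under 0.05, against 3.95% of all genes passing and 6.43% with groups that did not overlap. Cebpa had the lowest value, -0.60 (SE 0.29, adjusted p = 0.236, edgeR) with a 95% interval of -1.21 to 0.01. Treated WT libraries of replicates 1 to 3 lay below every untreated library for this gene, while replicates 4 and 5 lay within the untreated range. Kit was at -0.43 (SE 0.23, adjusted p = 0.29) and Gfi1 at 0.39 (SE 0.24, adjusted p = 0.366). Without treated WT replicate 5, which lay among the untreated libraries, Gfi1 came to 0.56 with an adjusted p of 0.0728, and the count over all genes went from 554 to 1989. Without treated WT replicate 3 Gfi1 was at 0.15. Cebpe, at 0.00 with an interval of -0.28 to 0.28, and Spi1, at 0.07 with an interval of -0.25 to 0.39, had the narrowest bounds.

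In Bmal1 Mye-/- mice the treatment comparison called 23.5% of all genes, and groups did not overlap for 20.1%. Of the 10 genes 0 passed by edgeR and 0 by limma, DESeq2 called 1, and 2 had an unadjusted p under 0.05, against 39.3% of all genes. Kit was lower by IMQ in the fitted value, with a log2 fold change of -0.58 (SE 0.23, fold 0.669, 95% interval -1.07 to -0.09), and its adjusted p was 0.0752 by edgeR and 0.0479 by DESeq2. Gfi1 had a log2 fold change of 0.59 (SE 0.24, fold 1.51, 95% interval 0.08 to 1.10, adjusted p = 0.0804 by edgeR). With the replicate number as a block, Gfi1 was at 0.60 with an adjusted p of 0.0409 by edgeR and passed, and 1 member was called. The labels do not say that same-numbered libraries are pairs. A fit of these 2 groups alone called both, with adjusted p-values of 0.0358 for Kit and 0.0244 for Gfi1. Without treated Bmal1 Mye-/- replicate 1 and treated WT replicate 3 both passed as well, Kit at -0.56 (adjusted p = 0.0301, edgeR) and Gfi1 at 0.65 (adjusted p = 0.0416, edgeR), and without treated WT replicate 5 too they were at -0.57 (adjusted p = 0.0269) and 0.62 (adjusted p = 0.0224). Leaving out treated Bmal1 Mye-/- replicate 2 alone also let Kit pass, at -0.69 (adjusted p = 0.0426), and leaving out untreated Bmal1 Mye-/- replicate 3 let Gfi1 pass, at 0.75 (adjusted p = 0.0465). The main test called 3292 of all genes, the 23.5% above. Over all genes DESeq2 called 4198, the block 3114 and the fit of 2 groups 2987. Without the 2 libraries the count was 4084, and without the 3 it was 4115. Without treated replicate 2 it was 4037, and without untreated replicate 3 it was 2701. Each gene thus passed in 5 of 20 alternatives, and in all 20 Kit was below 0 and Gfi1 above it. The fits without the 2 and without the 3 libraries are among the 5 for each gene and were chosen after seeing the data. Leaving out treated Bmal1 Mye-/- replicate 1 alone called 0 members. The WT libraries enter this comparison only through the shared fit. The other eight members ran from -0.44 for Cebpd (95% interval -0.98 to 0.11) to 0.54 for Cd34 (-0.47 to 1.55), and Cd34 came to -0.07 without replicate 1.

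**Figure D3:**
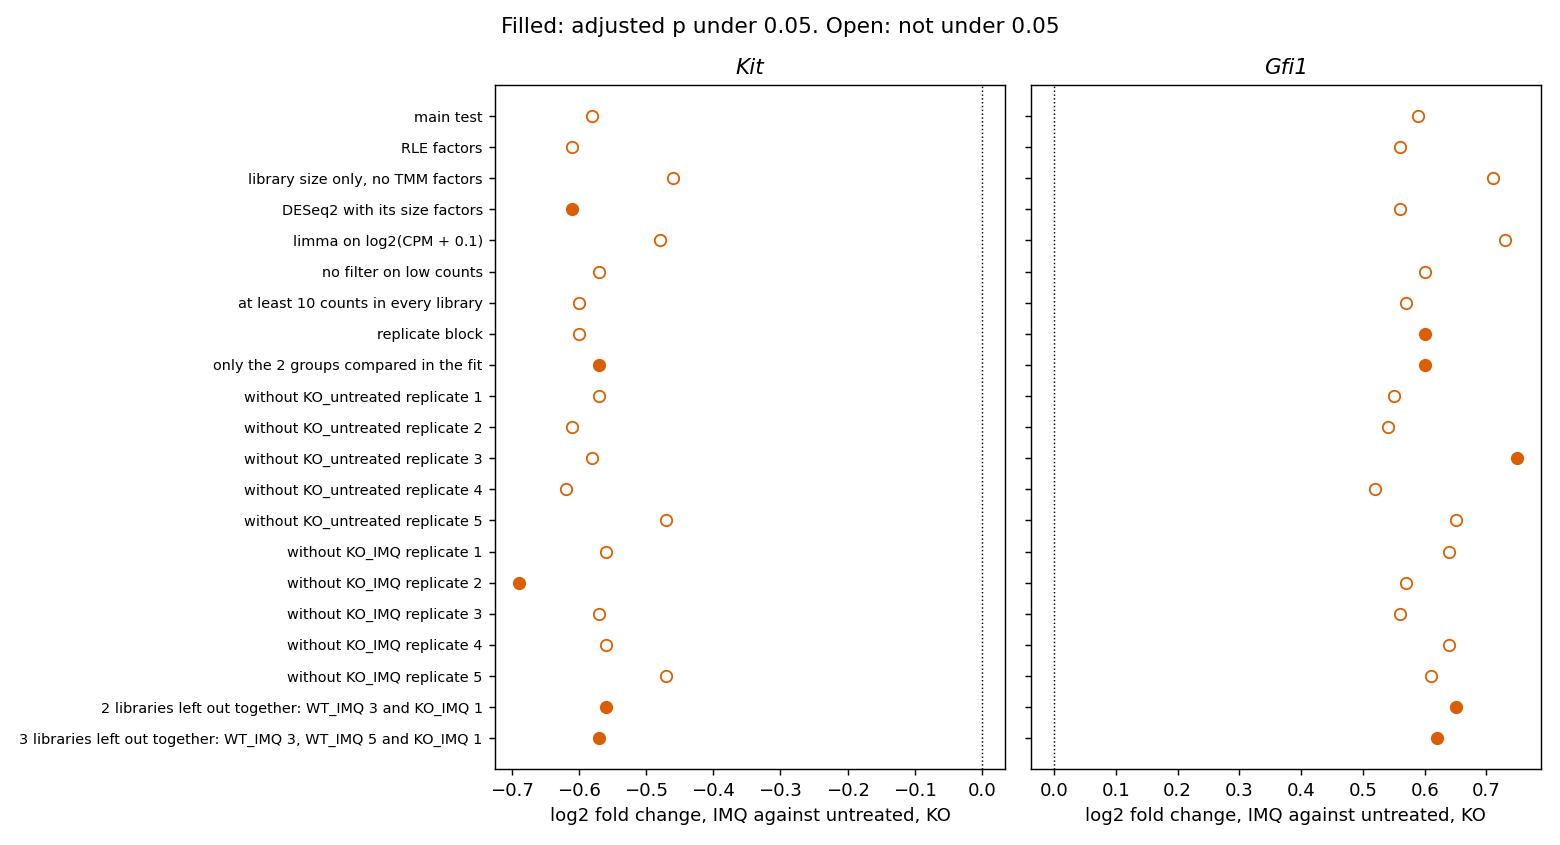
Log2 fold change of Kit (left) and Gfi1 (right), IMQ over untreated in KO (Bmal1 Mye-/-) mice (horizontal axes), in the main test and 20 alternatives (vertical axis), with filled points where the adjusted p was under 0.05. Kit stays below 0 and Gfi1 above 0, and 5 of the 20 alternatives are filled for each.

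Whether the treatment differences differed between the genotypes was tested by the interaction. Of all genes 0% passed by edgeR's quasi-likelihood test, 0 by DESeq2 and 0 by limma, with 5.14% at an unadjusted p under 0.05. Of the 10 genes 0 passed and 0 had an unadjusted p under 0.05. The smallest adjusted p was 0.64, for Myb, whose value was 0.42 (SE 0.22) with a 95% interval of -0.04 to 0.89. Kit was at -0.15 with an interval of -0.84 to 0.54 and Gfi1 at 0.20 with an interval of -0.51 to 0.92, so the differences of both genes under IMQ were not shown to be particular to Bmal1 Mye-/- mice. Without the 2 libraries the 10 interaction values ran from -0.31 for Kit to 0.50 for Gfi1, and without the 3 from -0.39 for Kit to 0.43 for Cd34. Of the 10 genes 0 passed in either, with smallest adjusted p-values of 0.364 and 0.491. The genotype and treatment comparisons share groups, and their values are therefore only set side by side.

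**Figure D4:**
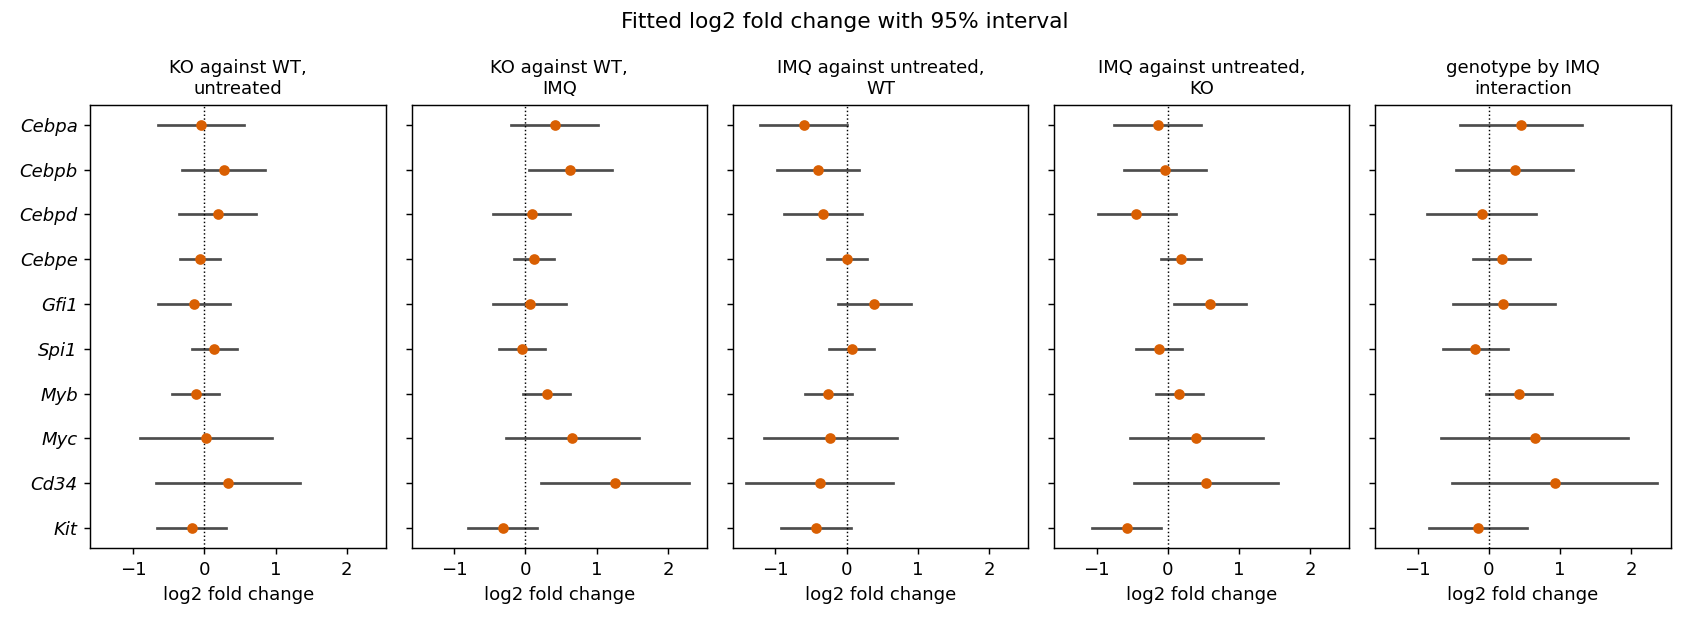
Fitted log2 fold change (horizontal axes) of the 10 genes (vertical axis) in the 5 comparisons, with lines for the 95% interval and KO standing for Bmal1 Mye-/-. Most intervals span 0, the exceptions being Cd34 and Cebpb between the genotypes under IMQ and Kit and Gfi1 between treatments in KO mice.

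Genes that act with the 10 were counted from fixed lists. Between the genotypes, untreated or treated, and in the interaction, edgeR called 0 of 6 other C/EBP family genes and C/EBP regulators, 0 of 28 other myeloid factors, 0 of 18 tested stem and progenitor genes, 0 of 10 Myc partners, 0 of 12 Myc targets, 0 of 6 primary granule genes and 0 of 6 secondary granule genes. At an unadjusted p under 0.05, treated genotypes had 0, 7, 6, 3, 4, 1 and 0 of these lists in that order, untreated genotypes 0 of each, and the interaction 1 in all, among the myeloid factors. DESeq2 called 1 myeloid factor and 1 stem and progenitor gene between the treated genotypes and 0 of the other lists, and limma called 0 of each list in these comparisons. Without the 2 libraries that stood apart, 2 of the myeloid factors and 1 Myc partner were lower in treated Bmal1 Mye-/- than in treated WT mice, and 0 were called without the 3. In Bmal1 Mye-/- mice under IMQ, where 23.5% of all genes were called, 1 of the 6 C/EBP genes and regulators rose and 3 fell. Trib3 rose by 2.16 (SE 0.58, adjusted p = 0.0156, edgeR), and Trib2, whose product is known to mark C/EBPalpha for breakdown, changed by -1.86 (SE 0.57, adjusted p = 0.0266, edgeR). Trib2 had a mean of only 0.519 CPM over the 20 libraries. Ddit3, which encodes the stress factor CHOP, was at -0.80 and Cebpz at -0.56, both called. The median of the 6 was -0.682. The same list had 0 calls by edgeR in WT mice under IMQ, with 3 at an unadjusted p under 0.05, 1 call by DESeq2 and 0 by limma.

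Of the 28 other myeloid factors, 3 rose and 5 fell in Bmal1 Mye-/- mice under IMQ, with a median of -0.154, and these 8 of 28 were near the 23.5% called over all genes. Spib, at -2.98 (SE 0.99), Egr1, at -2.29 (SE 0.51), Egr2, at -2.03 (SE 0.56), and Klf4, at 1.89 (SE 0.62), moved most on the log2 scale. Spib had a mean of only 0.306 CPM over the 20 libraries. Egr1 and Egr2 are immediate early genes induced in many cell types, and KLF4 is a monocyte factor. In WT mice under IMQ, where 3.95% of all genes were called, 1 rose and 1 fell, Cbfb at 0.43 and Irf4 at -1.94. Cbfb, the partner of RUNX factors, also rose in Bmal1 Mye-/- mice, by 0.76 (SE 0.12, adjusted p = 0.00383). Without the 3 libraries that stood apart, 4 rose and 8 fell in Bmal1 Mye-/- mice and 5 rose and 1 fell in WT mice.

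Of the 18 stem and progenitor genes tested, 2 fell in WT mice under IMQ, Slamf1 with a log2 fold change of -3.41 and Lyl1 with -0.61. Slamf1 had a mean of only 0.35 CPM over the 20 libraries. In Bmal1 Mye-/- mice 1 rose, Cd48, by 1.69 (SE 0.48, adjusted p = 0.0209, edgeR). Without the 3 libraries that stood apart 3 of 19 fell in WT mice, and in Bmal1 Mye-/- mice 4 of 19 fell and 0 rose. Mxd3, a Myc antagonist, rose by 0.88 in WT and 1.18 in Bmal1 Mye-/- mice under IMQ, and Mxd4, of the same family, changed by -0.51 in Bmal1 Mye-/- mice. Of the 12 Myc targets only Ldha, a glycolytic enzyme, was called under IMQ in WT mice, at 0.56, and 0 were called by edgeR in Bmal1 Mye-/- mice, with 2 at an unadjusted p under 0.05, 1 call by DESeq2, 0 by limma and a median of 0.491. Primary and secondary granule genes had 0 calls by edgeR under IMQ in either genotype, with 0 of 6 and 0 of 6 at an unadjusted p under 0.05 in WT and 1 of 6 and 1 of 6 in Bmal1 Mye-/- mice, where DESeq2 called 1 primary and limma 1 secondary granule gene. The primary granule genes had a median of 0.965 in Bmal1 Mye-/- mice, with 6 of 6 above 0, and -0.219 in WT mice. Their summed levels overlapped, at 253 to 1680 CPM in treated and 368 to 950 CPM in untreated Bmal1 Mye-/- libraries. Between the treated genotypes their median was 1.11, with 6 of 6 above 0. The secondary granule genes had medians of 0.113 in Bmal1 Mye-/- and 0.0691 in WT mice.

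Markers of other cells and of division moved in the same comparisons, and their part in the values of the 10 genes was not tested. In Bmal1 Mye-/- mice under IMQ, 8 of 10 cell cycle genes rose, Top2a by 1.99 and Mki67 by 1.72, and the summed level was 1160 to 2670 CPM in treated against 398 to 709 CPM in untreated libraries. In that comparison 5 of 9 monocyte and dendritic markers rose, Ccr2 by 2.30 and F13a1 by 2.12, though their summed level of 137 to 1760 CPM in treated libraries spanned the 310 to 498 CPM of the untreated. Without the 3 libraries that stood apart 2 of 10 rose and 3 fell. Of 9 neutrophil markers edgeR called 1 as lower, Csf3r, at -1.38. Only 1 of the 9 had a value above 0, the median was -0.652, and 4 had an unadjusted p under 0.05. DESeq2 and limma each called 3 as lower, as did edgeR without the 2 libraries and without the 3. Of other markers 3 of 8 B-lineage, 2 of 5 T and NK, 3 of 8 endothelial and stromal and 1 of 9 eosinophil markers fell, while 1 of 6 basophil and mast markers rose. Over all genes 23.5% were called there. Of 6 erythroid markers 0 were called by edgeR, with 2 at an unadjusted p under 0.05, 1 call by DESeq2 and 0 by limma. B-lineage markers summed to 5.31 to 8.38 CPM and T and NK markers to 8.7 to 21.1 CPM in treated Bmal1 Mye-/- libraries. Between the genotypes under IMQ, 3 of 9 eosinophil markers were higher in Bmal1 Mye-/- mice, Prg3 by 3.59, Epx by 2.97 and Prg2 by 2.54, at summed levels of 43.8 to 213 CPM against 21.7 to 42.8 CPM in WT, where 0.292% of all genes were called. Without the 2 libraries 5 of 9 were higher, and without the 3 edgeR called 0 of 9. In the full fit edgeR called 0 of the other cell markers between the treated genotypes. Basophil and mast markers had a median of 1.52, 5 of 6 above 0 and 5 at an unadjusted p under 0.05. Monocyte and dendritic markers had a median of 1.12, 8 of 9 above 0, 4 at that p and 3 called by DESeq2. Endothelial and stromal markers had 8 of 8 above 0, median 0.931. Neutrophil and erythroid markers had 0 of 9 and 0 of 6 above 0, at medians of -0.552 and -0.95. The cell cycle genes had values above 0 for 10 of 10 between the treated genotypes, with a median of 0.662. Of these edgeR, DESeq2 and limma called 0, and 2 had an unadjusted p under 0.05, while 7 of 10 were called as higher without the 2 libraries and 0 without the 3. In WT mice under IMQ 1 of 6 erythroid markers rose, Alas2 by 2.76, and 2 of 9 eosinophil and 2 of 8 endothelial and stromal markers fell. Over all genes 3.95% were called there. B-lineage markers had 0 of 8 called by edgeR and 2 lower by DESeq2. Their median was -1.64 in WT against -1.66 in Bmal1 Mye-/- mice. T and NK markers had 0 of 5 called by edgeR and 2 lower by DESeq2 and by limma. Their median was -1.14 in WT against -1.49 in Bmal1 Mye-/- mice. The cell cycle genes had values above 0 for 9 of 10 in WT mice under IMQ, with a median of 1. Of the 10 edgeR and limma called 0, DESeq2 called 3 as higher, and 6 had an unadjusted p under 0.05. In the interaction edgeR, DESeq2 and limma called 0 of the cell cycle genes.

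Within groups, several of the 10 genes varied together with these programmes. After the group means were subtracted, over the 20 libraries and as a description that shares depth and cell makeup, Myc followed the summed primary granule genes with r = 0.857, and with 0.803 without the 2 libraries farthest from the Myc median. Myb followed the same genes with r = 0.758, and 0.708 without its 2 farthest libraries. Primary granule genes such as Mpo and Elane are made by promyelocytes, the stage at which MYB and MYC are known to act. Cebpd ran against the cell cycle genes with r = -0.873, and -0.789 without its 2 farthest libraries, and with the neutrophil markers at 0.735, or 0.728 without those libraries. Gfi1 followed the cell cycle genes at 0.746, which came to 0.487 without IMQ-treated WT replicates 3 and 5. Spi1 followed the neutrophil markers at 0.841, which came to 0.506 without IMQ-treated Bmal1 Mye-/- replicate 1 and IMQ-treated WT replicate 3. Cebpa followed the monocyte and dendritic markers at 0.61, and 0.684 without its 2 farthest libraries. Among the 10 genes themselves, Spi1 with Myc gave -0.751, Cebpd with Myc -0.66, Cebpd with Spi1 0.629 and Cebpe with Gfi1 0.586. Without the 2 libraries farthest from the median of the first gene of each pair, these came to -0.558, -0.78, 0.72 and 0.699.

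**Figure D5:**
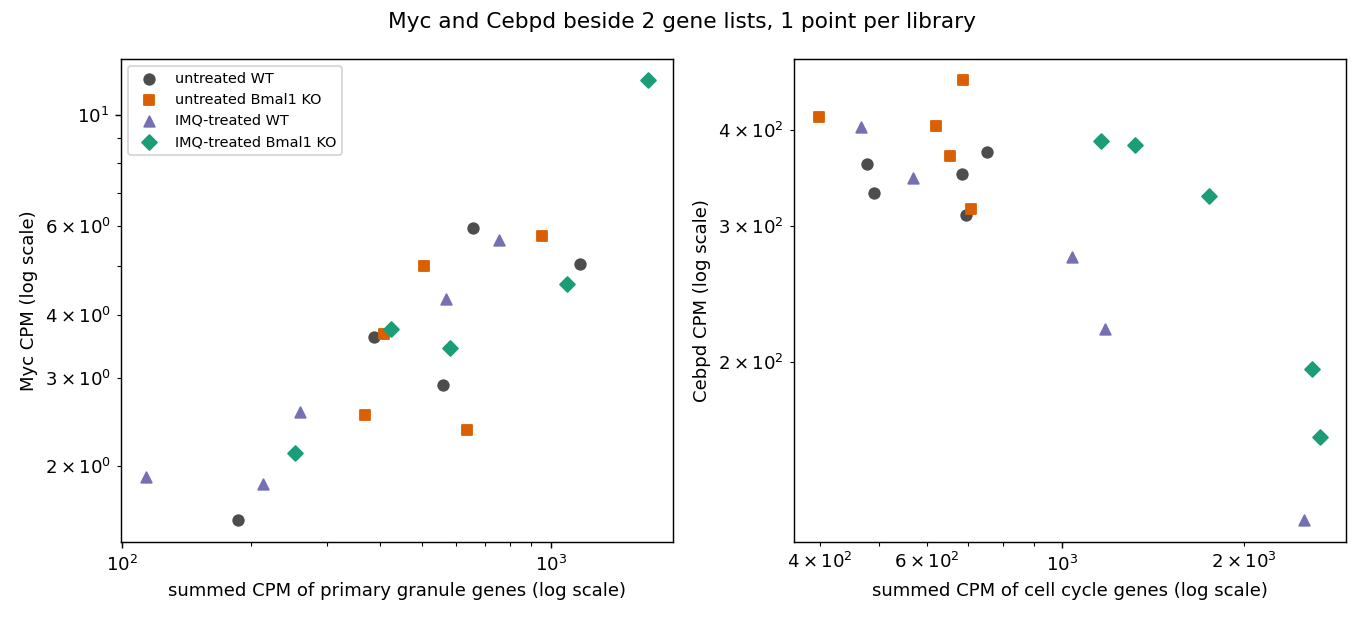
CPM of Myc beside the summed CPM of 6 primary granule genes (left) and of Cebpd beside that of 10 cell cycle genes (right), all on log scales, with 1 point per library and KO standing for Bmal1 Mye-/-. Myc rises with the granule genes up to replicate 1 of treated KO mice, at 11.7 CPM, and Cebpd is lowest, at 125 CPM, in the treated WT library with 2510 CPM of cell cycle genes.

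By the same measure the genes most like each member were found among the 14030 tested. Cebpd had the closest, Snx20 with r = 0.975, followed by BC037034 with 0.974. Spi1 was followed by Crlf2, a cytokine receptor chain, with 0.974, and Myc by Bzw2 and the mitochondrial chaperone Hspd1, each with 0.952. Cd34 was followed by Slc6a4 with 0.934, Cebpa by Ppt2 with 0.918 and Gfi1 by Ada, adenosine deaminase, with 0.913. Kit was followed by Tango6 with 0.895, Cebpb by Tctex1d4 with 0.89 and the phosphatase gene Dusp1 with 0.88, Cebpe by Abhd5 with 0.881 and Myb by Slc35b2 with 0.856. Without the 2 libraries farthest from the member's median these came to 0.737 for Tango6 with Kit, the largest drop of the first-ranked genes, and to 0.961 for Snx20 with Cebpd.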

How the data were processed

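RNA of bone marrow neutrophils, isolated by magnetic negative selection to a purity above 95%, was sequenced by the authors from poly(A) libraries, 1 per mouse. The deposited files hold whole-number counts of reads per gene, not normalized. The study's methods name TopHat for mapping Read 1, of 50 bases, to mm10, while the submitters' processing notes name bcl2fastq, STAR 2.7.8a and HTSeq 2.0.1. The counting annotation and strand setting are not given in the sources used here, nor is which library ran on which of the study's sequencers, so no batch could be set up. The deposited table of all results repeats the same counts and was not used.

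The 20 libraries were grouped by their labels, and libraries of a group are separate mice. The test was edgeR 4.0.16 in R 4.3.3, with TMM factors of 0.854 to 1.38, the filterByExpr filter, a quasi-likelihood fit of the 4 groups and Benjamini-Hochberg adjustment at 0.05 over 14030 genes. CPM in the text are TMM-scaled, and log2 CPM for correlations used a prior count of 2. Intervals are 95% from the same fit. RPKM used exonic bases of GENCODE vM21 on GRCm38, the build that mm10 names, matched by symbol. No pair of libraries within a group was a copy: over 40 such pairs the lowest chi-square per degree of freedom was 18.9. Pairs across groups were not compared. Counting error is largest for Cd34, at 12 to 199 reads per library.

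The fit was first tested on simulated counts with known changes between the treated genotypes. Of 100 genes changed by 1 on the log2 scale 49 were called, and of 100 changed by 2 the count was 80. Among unchanged genes 4 were called, and 0 were called in counts with no change. Changes smaller than 1 were not simulated.

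Pairing was checked by correlating residuals of libraries with the same replicate number. These were 0.128 to 0.426 between treatments in Bmal1 Mye-/- mice and 0.0728 to 0.384 between treatments in WT mice. They were -0.441 to 0.206 between untreated and -0.497 to 0.343 between treated genotypes. Libraries of unlike number were not compared and the labels name no pairs, so the block is given only as an alternative.

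Alternatives were RLE factors, library size only, DESeq2 1.42.0, limma 3.58.1 on log2(CPM + 0.1), no filter, at least 10 counts in every library, the replicate block, a fit of the 2 groups compared, and each library left out in turn. The CPM for limma were scaled by library size without TMM factors. Leaving out 2 or 3 libraries together was chosen after seeing the data. All 10 members were named. From each list, at most the 4 called genes with the largest log2 fold change per comparison were to be named, and genes outside that rule were chosen after their values were seen. The members and lists were chosen with earlier results of these data known.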

Additional observations from a re-analysis of the deposited data

Results flagged for a closer look

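Over 40 sets of 5 libraries (10 genes in 4 groups), 3 held a library whose gap to its nearest neighbour exceeded 0.71 of the group's range, the 95% limit of Dixon's test. Chance flags about 1 set in 20. All 3 were in IMQ-treated Bmal1 Mye-/- mice. Myc was at 11.7 CPM in replicate 1, where the next library was at 4.61 CPM. Spi1 was at 558 CPM in the same library, where the next was at 919 CPM. Cebpe was at 597 CPM in replicate 3, where the next was at 422 CPM.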

How the results depend on the processing

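For the log2 fold changes of the 10 genes, 1070 values were computed under the alternatives. Of these 65 changed sign, 11 came past the threshold and 0 lost it. No sign changed for a gene and comparison with an unadjusted p under 0.05 in the main test, and the cause of the changes was not tested.

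For IMQ in Bmal1 Mye-/- mice, DESeq2 called 1 member (Kit) and the replicate block 1 (Gfi1), while a fit of only the 2 groups, and fits without 2 libraries (treated WT replicate 3 and treated Bmal1 Mye-/- replicate 1) or 3 libraries (treated WT replicate 5 too), called 2. Over all genes those fits called 2987 to 4198, against 3292 in the main test. Leaving out 1 library in turn gave 0 to 1 members there and 0 to 1 between the treated genotypes. The replicate block changed no other call of a member. It gave 190 calls over all genes in WT mice under IMQ, against 554.

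Counts over all genes moved by more than 1.5 times as follows. Between untreated genotypes, 29 became 59 with only the 2 groups. Between treated genotypes, 41 became 313 with DESeq2, 16 with only the 2 groups, 1259 without the 2 libraries and 67 without the 3, and 20 to 3129 with 1 library left out. In WT mice under IMQ, 554 became 1480 with DESeq2, 326 without a filter, 186 with only the 2 groups, 899 without the 2 libraries and 2128 without the 3, and 48 (without untreated replicate 2) to 1989 (without treated replicate 5) with 1 left out. For IMQ in Bmal1 Mye-/- mice, 3292 became 1612 to 4037 with 1 left out, and the interaction gave 0 to 1.

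With library size only, Spi1 was at 0.14 between treated genotypes and -0.01 in WT mice under IMQ, Cebpe at -0.05 in WT mice, Cebpa at 0.06 and Cebpb at 0.08 in Bmal1 Mye-/- mice, and in the interaction Cebpd was at 0.09 and Kit at 0.08. With limma the same genes gave 0.13 and -0.01 for Spi1, -0.08 for Cebpe, 0.12 for Cebpb, 0.11 for Cebpd and 0.09 for Kit. Cebpe in WT mice under IMQ was at -0.01 with RLE factors, DESeq2, no filter, the block and only the 2 groups, -0.03 with 10 counts in every library, -0.06 without the 2 libraries and -0.02 without the 3. Without the 2 libraries Spi1 was at 0.01 between treated genotypes, and in Bmal1 Mye-/- mice under IMQ Cebpb was at 0.09, Spi1 at 0.03, Myc at -0.13 and Cd34 at -0.07. Without the 3 libraries these genes were at 0.07, 0.01, -0.16 and -0.09.

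With 1 library left out, signs changed within these ranges. Between untreated genotypes Cebpa ran from -0.18 to 0.03 and Myc from -0.19 to 0.23. Between treated genotypes Cebpd ran from -0.09 to 0.27, Cebpe from -0.02 to 0.22, Gfi1 from -0.11 to 0.30 and Spi1 from -0.13 to 0.09. In WT mice under IMQ Cebpe ran from -0.09 to 0.05 and Spi1 from 0.00 to 0.16. For IMQ in Bmal1 Mye-/- mice Cebpa ran from -0.35 to 0.02, Cebpb from -0.21 to 0.22, Spi1 from -0.15 to 0.02, Myc from -0.15 to 0.62 and Cd34 from -0.07 to 0.83. In the interaction Cebpd ran from -0.27 to 0.10 and Kit from -0.33 to 0.02. Depth limits Cd34 most, at 12 to 199 reads per library.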
